A study of Arabidopsis thaliana with 6 samples.

Results

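The chloroplast and mitochondrial genomes of Arabidopsis thaliana keep a small set of genes, and their transcripts were compared between seedlings held under water for 1 h and seedlings left in air. The members are the rows of the deposited count table whose identifier begins with ATCG (chloroplast) or ATMG (mitochondrion) and whose counts sum to 15 or more over all libraries. They number 117 of 27655 genes, with 57 encoded in the chloroplast (of 88 rows, 14 of which had no count) and 60 in the mitochondrion (of 122 rows, 20 of which had no count). All are protein-coding genes or open reading frames. The rule used the total count alone, and just inside it lay chloroplast rpl20 with 15 counts and mitochondrial NAD6 with 15, while ndhF with 11 and ORF131 with 14 lay just outside.

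Both groups were whole seedlings of the Col-0 ecotype, raised on MS-agar plates under long days to the age of 14 days, with no mutation or transgene named. The Air group (3 libraries) stayed in air and the Sub group (3 libraries) was placed in distilled water, each for 1 h. In units of 1e6 counts, the libraries held between 20.04 and 29.7, and organelle rows took only 0.0156% to 0.0229% of them. RNA was total RNA by label, and the sources used here do not say whether poly(A) RNA was selected, so the counts cannot be read as the amount of organelle RNA in the cell. The label of whole seedlings was checked with 16 root-preferred and 10 leaf-preferred genes, none of which was at 0 in all libraries. Root-preferred genes summed to between 1981 and 2319 CPM (counts per 1e6 counts, scaled) in air and between 1049 and 1445 under water, with 2 higher, 2 lower and 12 not past the test and a median log2 fold change of 0.24. PYK10 and NAI2, both lower, made up nearly all of that sum, and the other 14 summed to 42.9, 75.1 and 19.9 CPM in air and 60.9, 74.5 and 66.1 CPM under water, which overlap. Leaf-preferred genes summed to between 38951 and 41332 CPM in air and between 29934 and 32994 under water. Of these genes 1 was higher, 6 were lower and 3 did not pass the test, with a median log2 fold change of -0.25. Over all tested genes, 28.8% were higher and 26.1% lower. LHCB1.3 was the largest part of the leaf sum, at 16569, 15936 and 16511 CPM in air and 10900, 11485 and 12328 CPM under water. The part of tissue make-up in the results below was not tested, and in whole seedlings fewer cells of a type and less RNA per cell cannot be told apart.

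The chloroplast genome encodes core subunits of the photosystems, the cytochrome b6f complex, the ATP synthase and the NADH dehydrogenase-like (NDH) complex, the large subunit of Rubisco, and part of its own gene expression machinery. It is read by a bacterial-type RNA polymerase, whose core the chloroplast itself encodes and whose sigma factors come from the nucleus, and by phage-type polymerases encoded in the nucleus. Photosynthesis genes are read mainly by the bacterial-type enzyme, and the rpoB operon by a phage-type enzyme. The mitochondrial genome encodes subunits of complex I, cytochrome oxidase and the ATP synthase, proteins that mature cytochrome c, a few ribosomal proteins and many open reading frames, and is read by phage-type polymerases.

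Mitochondrial transcripts made up a larger share of every submerged library than of any air library, and chloroplast transcripts did not. Mitochondrial rows gave 40.0, 40.6 and 53.9 counts per 1e6 library counts in the 3 air libraries and 83.9, 103 and 79.0 in the 3 submerged libraries. The gap between the groups exceeded the spread within them, with means of 44.8 ± 7.88 and 88.5 ± 12.4 (SD, n = 3 each). Chloroplast rows gave 116, 120.1 and 141 per 1e6 in air and 113, 126 and 112 under water, and the groups overlapped. The ratio of mitochondrial to chloroplast counts, which does not depend on scaling between libraries, was 0.345, 0.338 and 0.384 in air and 0.745, 0.812 and 0.705 under water. Counting error was smaller than this gap, since the exact binomial 95% interval on halved counts was 49.5 to 58.6 mitochondrial counts per 1e6 for Air 3, the highest air library, and 73.6 to 84.7 for Sub 3, the lowest submerged library.

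**Figure D1:**
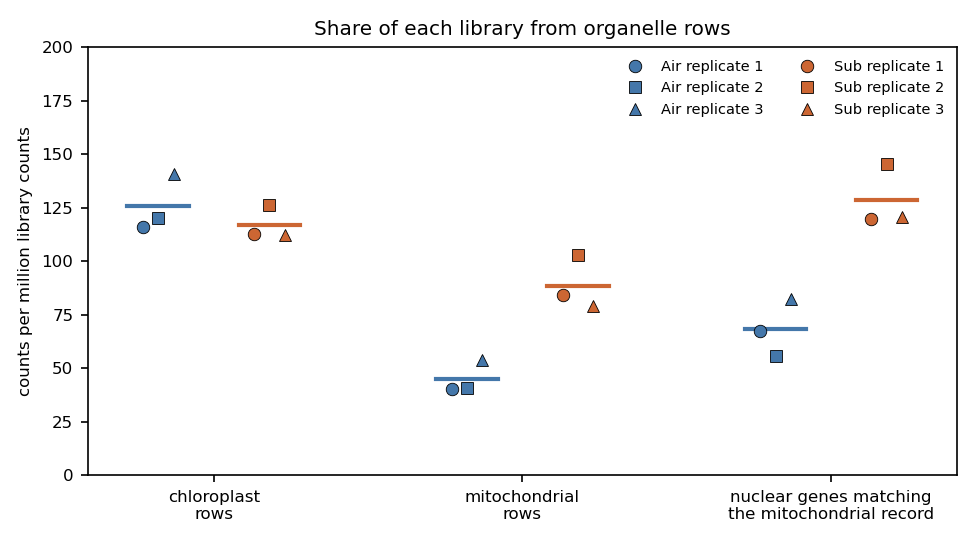
Counts per 1e6 library counts from chloroplast rows, mitochondrial rows and nuclear genes that match the mitochondrial record, with 1 point per library and a line at the mean of 3. Chloroplast points of the groups overlap around 112 to 141, while mitochondrial points run from 40.0 to 53.9 in Air and from 79.0 to 103 in Sub.

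Gene by gene, 75 members had enough counts for the edgeR quasi-likelihood test with Benjamini-Hochberg adjustment over 19495 genes, 39 of them chloroplast and 36 mitochondrial. Of the 39 chloroplast genes, 2 were called higher and 1 lower at an adjusted p under 0.05. Of the 36 mitochondrial genes, 17 were called higher and 1 lower, and without Sub 2 these counts were 11 and 0. Fewer than 17 were also called higher when counts were halved to stand for read pairs. Submergence changed much of the transcriptome, so these counts are read against a background of 55.0% of all tested genes called, 28.8% higher and 26.1% lower. Among nuclear genes with no more counts than the most abundant member, 41.7% were called, 20.3% higher and 21.4% lower. That cap was 2509 counts, while the highest mitochondrial member had 728. The median member had 106 counts in the chloroplast and 76.5 in the mitochondrion, so neither background is matched to the members in counts. The median log2 fold change, submerged over air, was -0.12 over the tested chloroplast genes, 0.93 over the tested mitochondrial genes and 0.01 over all tested genes. The filter let 4 mitochondrial genes pass through their submerged libraries alone, of which COX3, ORFX and ORF106F are among the 17. In all, 15 of the 36 had fewer than 3 air libraries past the filter, and 3 had fewer than 3 submerged libraries past it. Among the 17 called higher, 7 had fewer than 3 such air libraries, CCB206 and RPL2 included, and would not have passed on air libraries alone. The numbers of calls and the medians describe the genes that passed, and not the whole set.

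Over all members, tested or not, the CPM summed over a group (TMM scaling) was higher under water for 56 of 60 mitochondrial and 25 of 57 chloroplast genes. The submerged libraries lay wholly above the air libraries for 26 mitochondrial genes and 7 chloroplast genes, and wholly below for 1 and 3. Among tested members alone, 18 of 36 mitochondrial and 4 of 39 chloroplast genes separated upwards, and 1 of each downwards. Over all tested genes, such separation was seen upwards in 32.2% and downwards in 30.0%. Untested members have no such background. A fit to every gene with 15 counts or more, where 51.2% of 20988 genes were called (26.9% higher and 24.3% lower), gave 3 chloroplast genes higher and 1 lower, and 18 mitochondrial genes higher and 0 lower. Of the 18 mitochondrial genes called in the main fit 16 were called there too, ORF313 and ORF114 being lost (adjusted p = 0.0648 and 0.0542 by edgeR).

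Among chloroplast genes, psaA was the member called lower. psaA (ATCG00350) encodes a reaction-centre protein of photosystem I, and stood at 4.15, 3.95 and 6.44 CPM in air against 2.03, 2.91 and 2.27 CPM under water. All submerged libraries were below all air libraries, and the log2 fold change was -1.01 ± 0.26 (SE, adjusted p = 0.00447 by edgeR). Its partner in the reaction centre, psaB (ATCG00340), is the neighbouring gene on the chloroplast record of TAIR10.1. psaB stood at 3.84, 3.76 and 4.08 CPM in air and 2.60, 3.90 and 2.06 CPM under water, with a log2 fold change of -0.44 ± 0.25 that did not pass the test (adjusted p = 0.154). Sub 2 was level with the air libraries for psaB, and without that library the change was -0.72 (adjusted p = 0.0349).

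None of the 4 photosystem II genes tested passed the test. psbA (ATCG00020), which encodes the D1 reaction-centre protein, was the most abundant member per unit length, at 29.7 ± 12.3 TPM in air and 23.7 ± 3.06 TPM under water in the authors' values (SD, n = 3). Its CPM was 16.1, 13.2 and 28.7 in air and 15.3, 17.1 and 13.6 under water. Air 3 alone stood high, and the log2 fold change of -0.33 ± 0.22 (edgeR adjusted p = 0.232) became 0.06 without Air 3 and -0.54 (adjusted p = 0.0393) without Air 2. psbC and psbB, the antenna proteins of the core, and psbD, the D2 protein, had log2 fold changes of -0.32 ± 0.25, -0.20 ± 0.25 and -0.21 ± 0.22, none past the test. rbcL (ATCG00490), the large subunit of Rubisco, showed the same high Air 3 library, with 4.91, 4.47 and 8.41 CPM in air and 3.98, 6.31 and 4.96 CPM under water. Its log2 fold change of -0.22 ± 0.25 did not pass the test (edgeR adjusted p = 0.482) and turned to 0.11 without Air 3.

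No gene of the cytochrome b6f complex, the ATP synthase or the NDH complex passed the test in the chloroplast. atpB (ATCG00480), a catalytic subunit of the ATP synthase and second in TPM, was at 11.9, 14.1 and 12.1 CPM in air and 10.1, 11.8 and 12.3 CPM under water (log2 fold change -0.16 ± 0.12). petB, which encodes cytochrome b6, had a log2 fold change of -0.20 ± 0.51, and it turned to 0.13 without Sub 3. ndhD had the lowest fitted value, at -1.08 ± 0.55, but with 28, 10 and 15 counts in air and 8, 5 and 12 under water its groups overlapped and the edgeR adjusted p was 0.109. atpF, a membrane subunit of the ATP synthase, was at 0.54 ± 0.34, with separate groups but an edgeR adjusted p of 0.198.

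RNA polymerase genes gave both of the chloroplast calls upwards. rpoB (ATCG00190), the beta subunit and the member with the most counts (2509 in all), was at 15.1, 15.4 and 17.3 CPM in air and 20.3, 22.2 and 17.9 CPM under water. The submerged libraries lay above the air libraries, though Sub 3 only just, and the log2 fold change was 0.34 ± 0.10 (edgeR adjusted p = 0.0134). rpoC1 (ATCG00180), which encodes the beta-prime subunit, was at 5.14, 4.66 and 5.41 CPM in air and 6.79, 8.03 and 6.92 CPM under water, a log2 fold change of 0.51 ± 0.16 (edgeR adjusted p = 0.0142). The groups of rpoC1 were clearly apart. These 2 calls are small and lean on single libraries, since without Sub 2 neither passed (adjusted p = 0.0593 for rpoB and 0.0621 for rpoC1), and rpoB also missed without Air 1 (adjusted p = 0.0555) or with upper quartile scaling (0.0849).

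The next gene along, rpoC2, which encodes the other large subunit of this enzyme, was at 3.45, 4.70 and 4.72 CPM in air and 3.11, 4.68 and 3.20 CPM under water (log2 fold change -0.23 ± 0.23, edgeR adjusted p = 0.427). rpoA, the alpha subunit, which lies elsewhere on the chloroplast record, had a log2 fold change of 0.07 ± 0.31. Counts of rpoB divided by those of rpoC2 were 4.37, 3.27 and 3.67 in air and 6.53, 4.75 and 5.60 under water. This ratio needs no scaling between libraries, and it was higher in every submerged library. RNA polymerase genes together took 21.9%, 22.8% and 21.5% of chloroplast counts in air and 29.1%, 28.9% and 25.6% under water, while photosystem I genes took 6.93%, 6.64% and 7.50% and then 4.10%, 5.34% and 3.74%.

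Other parts of the chloroplast gene expression machinery did not pass the test. Of 12 ribosomal protein genes tested, none was called, and their log2 fold changes ran from -0.41 to 0.74. rps3 was at 1.84, 1.65 and 1.67 CPM in air and 1.89, 2.45 and 2.68 CPM under water, with separate groups but an edgeR adjusted p of 0.205. rpl32 had 0 counts in the 3 air libraries and 6, 11 and 6 under water, which is at least 3.65-fold more than the floor of 6 counts (3 read pairs) over a group. It was too low for the main filter and was called higher in the fit without it (adjusted p = 0.00694 by edgeR). matK, the intron maturase, had a log2 fold change of 0.09 ± 0.39, clpP1, a protease subunit, -0.52 ± 0.34, and ycf1, a protein of the inner envelope, 0.64 ± 0.53 (from 0.23 to 1.12 when 1 library was left out), none past the test. accD, a subunit of acetyl-CoA carboxylase, had 0, 0 and 5 counts in air and 14, 2 and 0 under water and was not tested.

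Some chloroplast genes lie in an inverted repeat and have an identical copy, between which reads cannot be told apart. Summing the copies gave log2 fold changes of 0.15 ± 0.43 for ndhB, 0.25 ± 0.44 for rps7, 0.07 ± 0.38 for ycf2 and -0.12 ± 0.19 for rpl2, none past the edgeR test. The 2 ndhB rows taken apart were at -0.08 ± 0.50 and 0.32 ± 0.51.

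**Figure D2:**
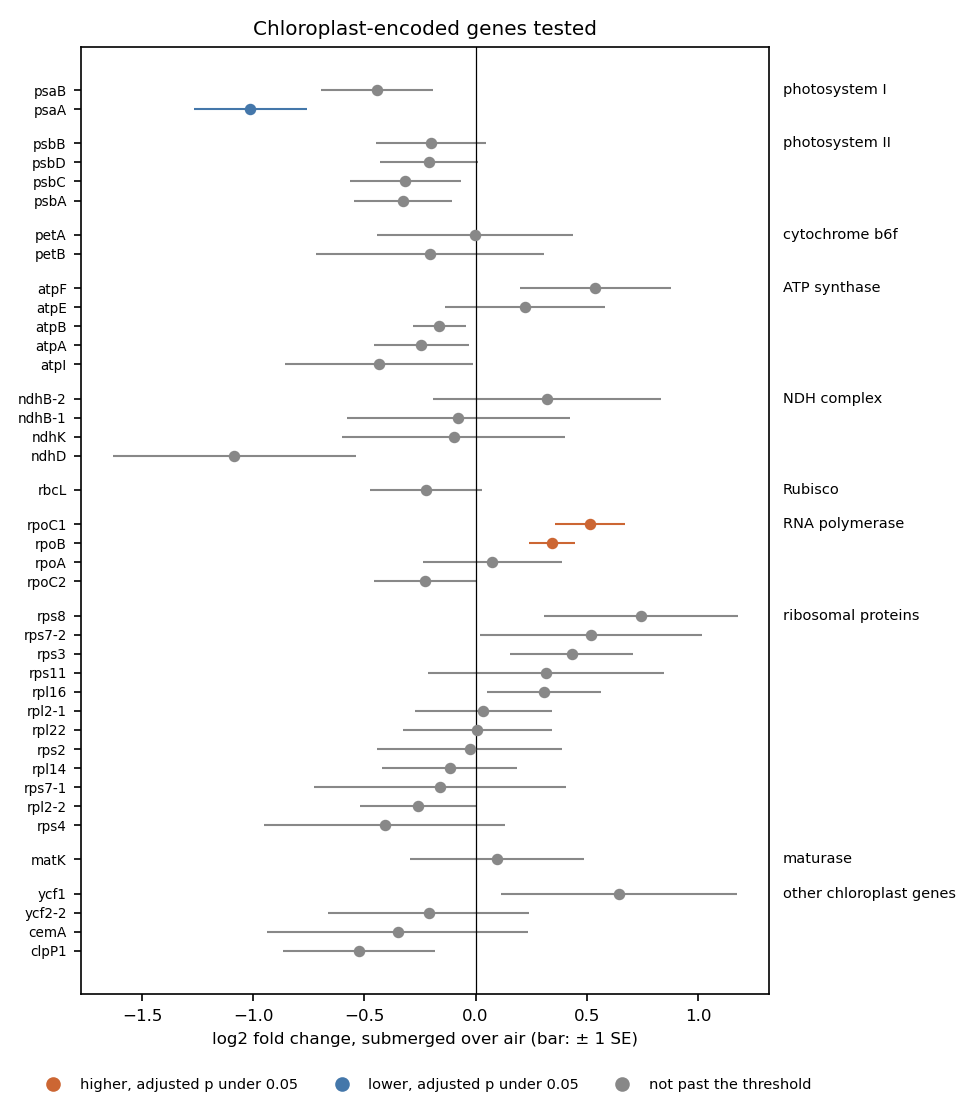
Log2 fold change, submerged over air, of the 39 chloroplast genes tested, grouped by role, with bars of 1 SE. psaA at -1.01 is the only gene called lower, rpoC1 at 0.51 and rpoB at 0.34 are called higher, and the bars of most other genes reach or cross 0.

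By class, the 18 tested photosynthesis genes had a median log2 fold change of -0.21 and the 17 tested gene expression genes one of 0.07. These are descriptions of fitted values, most of which did not pass the test. Photosynthesis genes took 57.9%, 56.0% and 62.4% of chloroplast counts in air and 49.5%, 53.2% and 51.0% under water. Gene expression genes took 37.4%, 39.7% and 33.8% and then 46.4%, 43.3% and 44.8%. The groups did not overlap in either class, but these shares are nearly complementary, so a rise in one is a fall in the other. Per 1e6 library counts, photosynthesis genes gave 67.1, 67.3 and 87.7 in air and 55.7, 67.2 and 57.2 under water, which overlap. Gene expression genes gave 43.3, 47.7 and 47.5 and then 52.3, 54.8 and 50.3, which do not overlap. Its main parts overlapped when taken alone. RNA polymerase genes gave 25.4, 27.4 and 30.2 in air and 32.8, 36.5 and 28.7 under water. Ribosomal protein genes gave 17.1, 19.45 and 16.6 in air and 18.7, 17.55 and 20.8 under water.

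In the mitochondrion, cytochrome oxidase, the terminal enzyme of the respiratory chain, was represented by 3 genes, and the submerged libraries of each lay above its air libraries. COX1 (ATMG01360), the catalytic core, was at 0.998, 1.13 and 1.57 CPM in air and 2.84, 3.50 and 2.94 CPM under water. The groups were well apart and the log2 fold change was 1.33 ± 0.29 (edgeR adjusted p = 0.00151). COX3 (ATMG00730) had 6, 0 and 8 counts in air and 14, 36 and 12 under water, a log2 fold change of 2.09 ± 0.77 (edgeR adjusted p = 0.0342). No air library of COX3 reached the filter, and its call was lost without Air 1 (adjusted p = 0.0788) or Air 2 (0.0872). COX2 (ATMG00160) was at 1.77, 1.98 and 2.56 CPM in air and 2.77, 3.31 and 3.36 CPM under water, and its change of 0.58 ± 0.25 did not pass (edgeR adjusted p = 0.0684) except without Air 3 (0.0438).

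ATP synthase genes moved unequally. ATP6-1 (ATMG00410), a subunit of the proton channel in the membrane, was at 2.23, 2.45 and 3.10 CPM in air and 7.87, 7.26 and 6.09 CPM under water. Every submerged library was well above every air library, and the log2 fold change was 1.46 ± 0.20 (edgeR adjusted p = 3.99e-05). ATP6-2 (ATMG01170), a second gene of the same subunit, which shares much of its sequence, rose by 1.84 ± 0.30 (adjusted p = 0.000167 by edgeR). ATP1 (ATMG01190), the alpha subunit of the catalytic head, was at 1.96, 1.65 and 3.05 CPM in air and 4.93, 5.13 and 2.58 CPM under water. Sub 3 lay within the air range for ATP1, and the log2 fold change of 0.94 ± 0.31 passed (edgeR adjusted p = 0.0207) but was lost without Air 1, Air 2, Sub 1 or Sub 2 (adjusted p of 0.0703 to 0.0897).

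Other subunits of the same enzyme showed no call. ORF25 (ATMG00640), the row of the peripheral stalk gene atp4, was at 1.23, 1.32 and 1.72 CPM in air and 1.28, 1.59 and 1.45 CPM under water, with a log2 fold change of 0.02 ± 0.32. ATP9 (ATMG01080), the ring subunit, was at 0.883, 0.847 and 1.57 CPM in air and 1.01, 1.63 and 0.671 CPM under water, and its log2 fold change of 0.02 ± 0.43 changed sign with the library left out and with upper quartile scaling. YMF19, the row of atp8, had a log2 fold change of 0.85 ± 0.40 (edgeR adjusted p = 0.0884).

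Of 4 complex I genes tested, none was called. NAD4 was at 1.57, 1.22 and 2.07 CPM in air and 2.53, 3.72 and 1.19 CPM under water, with Sub 3 the lowest library of all. Its log2 fold change was 0.62 ± 0.39, and those of NAD5A, NAD7 and NAD9 were 0.82 ± 0.86, 1.05 ± 0.53 and 0.51 ± 0.57. NAD5A, NAD7 and NAD9 had few counts, between 52 and 80 in all. Single libraries moved them far, NAD5A from 0.29 (without Sub 3) to 2.40 (without Air 2) and NAD9 from 0.16 (without Air 3) to 1.40 (without Air 2), and none of these values passed. COB, the mitochondrial subunit of complex III, had 0 counts in each library. A nuclear gene identical to it over its whole coding sequence, AT2G07727, had 35, 26 and 32 counts in air and 68, 84 and 88 under water, a log2 fold change of 1.35 ± 0.31 (edgeR adjusted p = 0.00236), so a COB count of 0 does not show that its transcript was absent.

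Genes for cytochrome c maturation, whose products attach heme to this electron carrier, gave 2 calls upwards among 3 tested. CCB206 (ATMG00110), the row of ccmB, a transporter component, had 20, 16 and 8 counts in air and 77, 83 and 61 under water. In CPM these were 0.768, 0.752 and 0.393 against 2.60, 3.77 and 3.15, with the groups far apart and a log2 fold change of 2.28 ± 0.34 (edgeR adjusted p = 8.31e-05). CCB452, the row of ccmFC and the mitochondrial member with the most counts (728 in all), was at 3.38, 3.29 and 3.64 CPM in air and 6.48, 7.67 and 6.97 CPM under water. It rose by 1.03 ± 0.17 on the log2 scale (edgeR adjusted p = 0.000196), with little spread within either group. CCB382, the row of ccmFN1, had a log2 fold change of 0.83 ± 0.53 and did not pass. ORFX (ATMG00570), the row of the translocation gene mttB, had 4 counts in each air library and 18, 16 and 24 under water, a log2 fold change of 2.21 ± 0.56 (edgeR adjusted p = 0.00409), and it entered the test through its submerged libraries alone.

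Both tested mitochondrial genes named as ribosomal proteins rose. RPL2 (ATMG00560) had 20, 10 and 7 counts in air and 70, 90 and 36 under water, a log2 fold change of 2.35 ± 0.42 (edgeR adjusted p = 0.000373). RPL16 (ATMG00080) had 21, 18 and 11 counts in air and 53, 37 and 24 under water, a log2 fold change of 1.10 ± 0.37 (edgeR adjusted p = 0.0223). The groups did not overlap for either. MATR, the maturase, had a log2 fold change of 0.82 ± 0.43 and did not pass. RPS4 had 20 counts in Sub 1 and 0 in each other library, so its signal came from 1 library.

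Open reading frames of no assigned function, with ATMG00090, a row without a gene symbol, made up 30 of the 60 mitochondrial members. Of 16 tested, 7 were called higher and 1 lower. The mitochondrial RefSeq gene rps3, of 1671 coding bases with a nuclear match over 14.4% of them, had no member under its symbol. ATMG00090 may be its row. In air, ATMG00090 had a mean of 1.44 CPM and 1.41 TPM, beside 1.23 CPM and 1.27 TPM for COX1 (1584 bases). Its length was therefore somewhat above that of COX1. Whether ATMG00090 is rps3 was not tested further, and it is counted here with the open reading frames. ORF275 was at 0.998, 0.752 and 1.28 CPM in air and 3.31, 3.22 and 3.05 CPM under water, a tight rise of 1.66 ± 0.29 on the log2 scale (edgeR adjusted p = 0.000304). ORF106F had 0, 2 and 2 counts in air and 16, 15 and 14 under water, with a fitted log2 fold change of 3.31 ± 0.77 (edgeR adjusted p = 0.00219), and no air library reached the filter. ORF262, at 7.50 ± 3.46 TPM in air the highest mitochondrial member per unit length, rose by 0.87 ± 0.28 although Air 3 overlapped the submerged libraries. The other calls upwards were ORF113, ORF291, ORF114 and ATMG00090, with log2 fold changes of 1.19, 1.29, 1.55 and 0.77. For ORF114 the groups overlapped, with 4, 4 and 11 counts in air and 16, 20 and 22 under water, and 1 air library reached the filter.

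ORF313 (ATMG00590) was the mitochondrial gene called lower. It had 28, 22 and 24 counts in air and 18, 4 and 12 under water, and at 1.07, 1.03 and 1.18 CPM against 0.608, 0.182 and 0.619 CPM its groups did not overlap. The log2 fold change was -1.20 ± 0.47 with an edgeR adjusted p of 0.0456, and the call was lost without any of Air 1, Air 2, Air 3, Sub 1 or Sub 2 (adjusted p of 0.0601 to 0.155) and with DESeq2 (0.0559). Among genes too low for the main filter, ORF121A had 0 counts in all air libraries and 17, 6 and 2 under water, which is at least 3.97-fold more than the same floor of 6 counts.

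**Figure D3:**
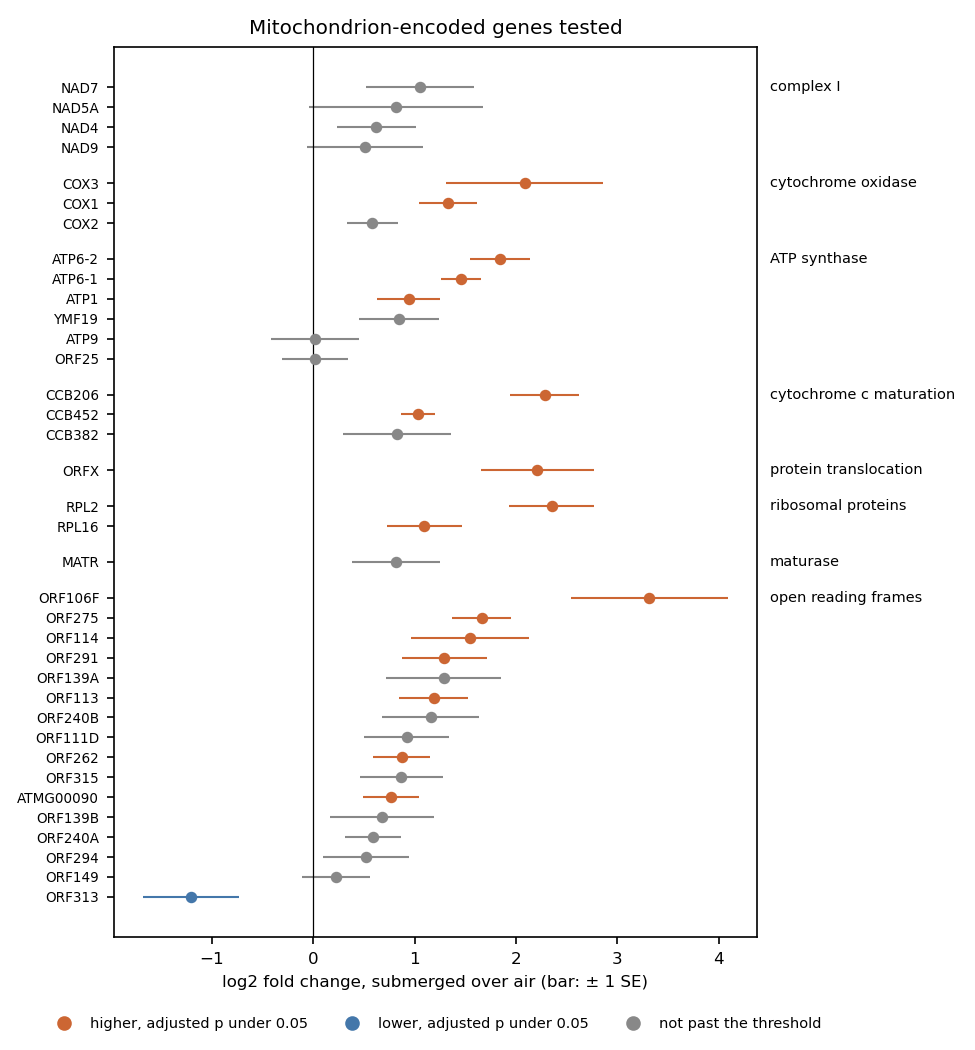
Log2 fold change, submerged over air, of the 36 mitochondrial genes tested, grouped by role, with bars of 1 SE. Apart from ORF313 at -1.20, and ORF25 and ATP9 at 0.02, the genes lie at 0.23 or above, and 17 are called higher, among them CCB206 at 2.28 and COX1 at 1.33.

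**Figure D4:**
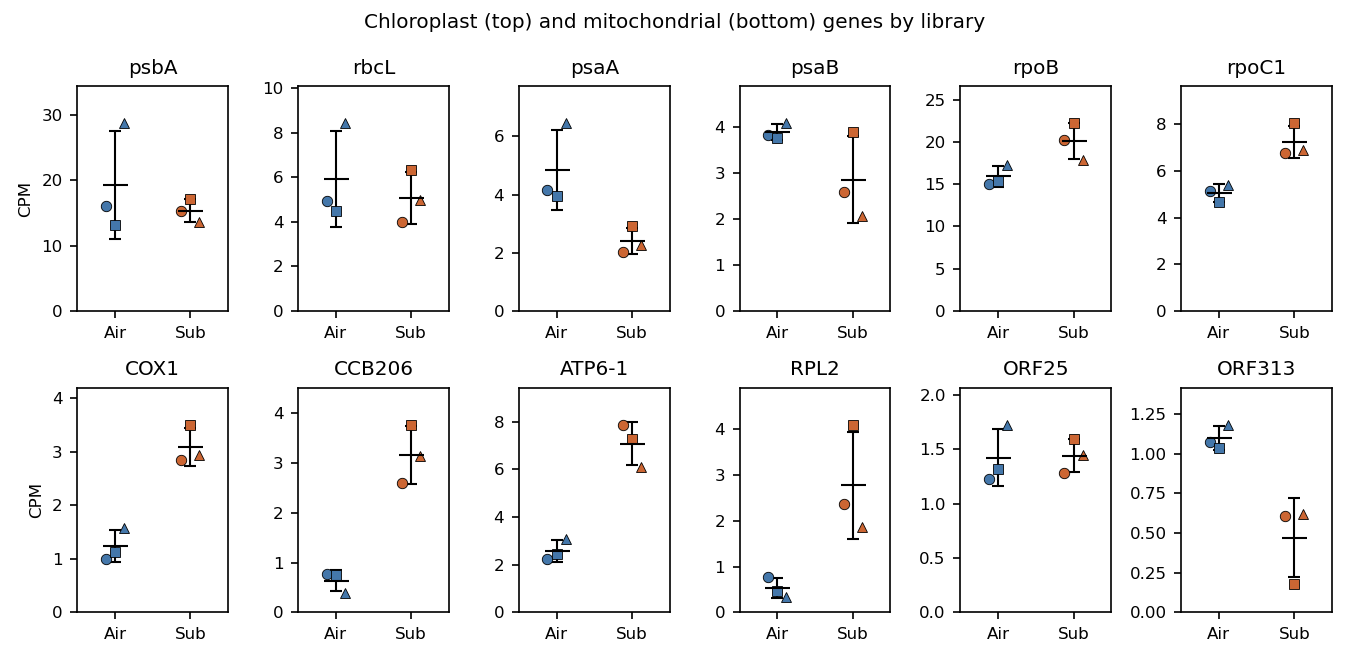
CPM in each library for 6 chloroplast genes (top) and 6 mitochondrial genes (bottom), with points for replicates 1 (circle), 2 (square) and 3 (triangle) and a mark at the mean ± SD of 3. Air 3 stands high for psbA and rbcL. The groups separate upwards for rpoB, rpoC1, COX1, CCB206, ATP6-1 and RPL2 and downwards for psaA and ORF313. They overlap for psbA, rbcL, psaB and ORF25.

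The make-up of mitochondrial counts was also compared, and its main classes overlapped between the groups. Respiratory subunits took 35.2%, 38.8% and 39.4% of mitochondrial counts in air and 38.6%, 38.3% and 33.9% under water. Open reading frames, with the unnamed row ATMG00090, took 42.6%, 39.3% and 43.7% and then 38.5%, 36.6% and 40.4%.

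A long stretch of mitochondrial sequence is also present in the nuclear genome of Arabidopsis, so reads of many mitochondrial genes can fall on nuclear rows. In TAIR10.1, the coding sequences of CCB206 (ccmB) and ORF25 (atp4) had no nuclear match at 95% identity or more, and COX1 had one over 3.3% of its length. CCB206 and COX1 were called higher and ORF25 was not. A nuclear copy absent from this assembly would not be seen, and the part of nuclear copies in the counts was not tested. The matches of NAD9, RPL16 and COX2 covered 14.5%, 40.6% and 42.8%. Those of 12 other tested members assigned a RefSeq coding sequence by symbol covered 98.6% or more. The 2 atp6 coding sequences of that record were covered over 72.5% and 100.0%, and could not be assigned to ATP6-1 and ATP6-2 by length. In the annotation, 159 nuclear genes matched the mitochondrial record over at least 80% of their transcript, and 33 were tested. Of these, 23 were called higher and 0 lower by edgeR, beside 28.8% and 26.1% of all tested genes, with a median log2 fold change of 1.26. Together the 92 such genes in the table gave 67.3, 55.6 and 82.1 counts per 1e6 in air and 119.5, 145 and 120.4 under water. Nuclear and mitochondrial rows therefore moved the same way, and the source of a read between near-identical copies cannot be told apart.

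Counts were also summed for 9 members and the nuclear gene that matches each, an alternative chosen after the data were seen, and 5 of the 8 sums tested passed. The summed log2 fold change was 0.79 ± 0.18 for ATP1 (adjusted p = 0.00202), 1.55 ± 0.37 for COX3 (0.00302), 1.00 ± 0.23 for RPL2 (0.00219), 1.37 ± 0.37 for RPL5 (0.00646) and 1.07 ± 0.29 for YMF19 (0.00745), all by edgeR. RPL5 was not tested alone and YMF19 did not pass alone, while their nuclear rows, at 1.25 ± 0.39 and 1.27 ± 0.36, passed. For RPL2 the sum moved the value from 2.35, since the nuclear row alone was at 0.41 ± 0.26. The sums for ATP9 (0.33 ± 0.14), RPSL2 (0.90 ± 0.53) and RPS4 (0.63 ± 0.40) did not pass, with edgeR adjusted p of 0.0649, 0.168 and 0.206.

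Nuclear genes that serve the chloroplast fell in most lists, to be read beside 26.1% lower and 28.8% higher among all tested genes. Of 22 genes for plastid transcription, 17 were lower and 0 higher, with a median log2 fold change of -0.46. All 6 sigma factors, which direct the bacterial-type polymerase to its promoters, were among them, led by SIG1 at -1.22 ± 0.07 and SIG4 at -1.06 ± 0.06, and the phage-type polymerase RPOTp fell by 0.97 ± 0.06. Of 11 tested genes for plastid RNA processing and stability, 7 were lower and 0 higher, with the nuclease gene RNJ at -0.69 ± 0.07. Of 30 nuclear genes for thylakoid complexes and Rubisco, 26 were lower and 0 higher, with a median of -0.43, against a median of -0.21 over the 18 chloroplast-encoded photosynthesis genes tested. NDHM, of the NDH complex, was at -1.34 ± 0.08 and PSAD2, of photosystem I, at -0.94 ± 0.07. The 4 genes for enzymes of ppGpp, a nucleotide that lowers plastid transcription, split. RSH2 and RSH3 rose by 1.59 ± 0.08 and 0.64 ± 0.06, while RSH1 and CRSH were lower, at -0.54 ± 0.06 and -0.27 ± 0.08.

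Some nuclear genes for mitochondrial respiration also rose. Of 22 tested, 12 were higher, 0 lower and 10 did not pass, with a median log2 fold change of 0.18. Over all tested genes, 28.8% were higher and 26.1% lower. The cytochrome c genes CYTC2 and CYTC1 rose by 0.78 ± 0.13 and 0.57 ± 0.05, and CA1, of complex I, by 0.50 ± 0.07. Of 6 genes for mitochondrial transcription and RNA processing, the polymerase RPOTm rose by 0.29 ± 0.07, the ribonuclease gene RNR1 was at -0.53 ± 0.06 and 4 did not pass. All of these are edgeR calls at an adjusted p under 0.05 in the same fit.

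**Figure D5:**
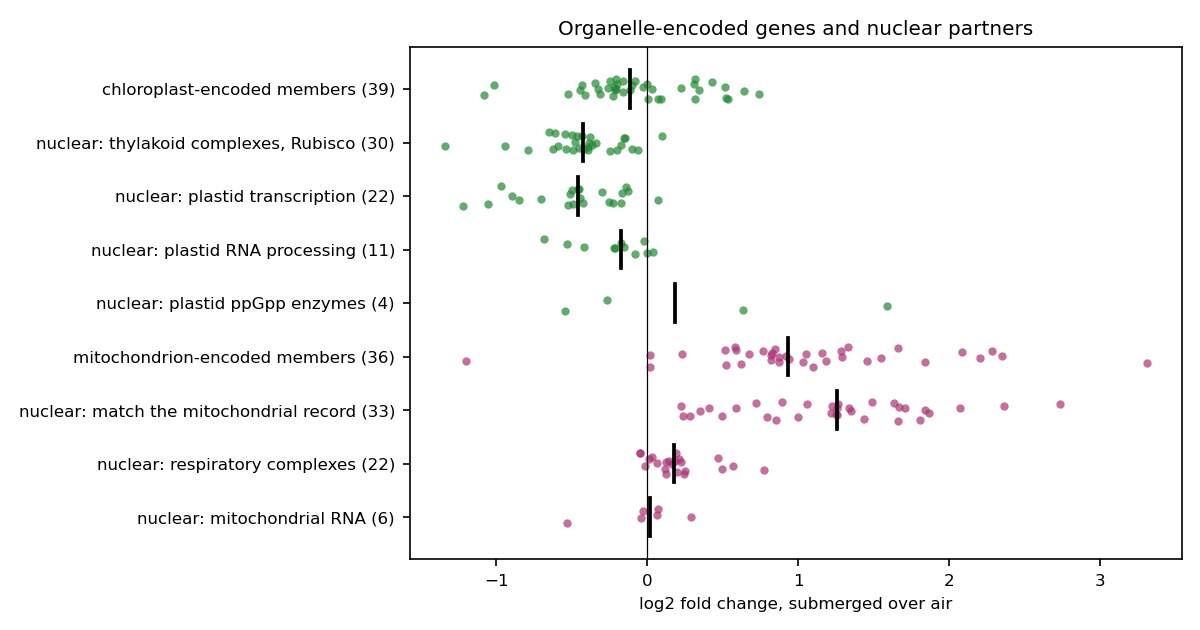
Log2 fold change, submerged over air, of each tested organelle-encoded gene (chloroplast 39, mitochondrion 36) and of nuclear genes by list, with the number of genes in parentheses and a black line at the median. Nuclear plastid lists other than the ppGpp enzymes have medians below 0, nuclear genes matching the mitochondrial record have a median of 1.26, and nuclear respiratory genes a median of 0.18.

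The authors' deposited table of fold changes, in which 46.5% of 22967 genes had a false discovery rate under 0.05, called 3 chloroplast genes higher and 1 lower, and 20 mitochondrial genes higher and 1 lower. All 3 chloroplast and all 18 mitochondrial genes called here were among them.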

How the data were processed

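Counts of reads per gene, RPKM, TPM and a CPM-like signal were deposited by the authors for 27655 genes in 6 libraries, per the file headers. The deposited table of comparisons gives a fold change score, log2 fold changes and p-values. The genome build was TAIR10, per the submitters' processing notes. The sources used here name no aligner, counter, strand setting or library selection. Deposited RPKM values fitted the coding length of 50 of 54 chloroplast and 19 of 30 mitochondrial members named in RefSeq (within 2 bases), so the nuclear matches of the other 11 rest on the gene symbol. Low counts were mostly even (85.8% to 87.4% of counts from 1 to 20), so a floor of 6 counts, or 3 read pairs, was set per group.

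All genes were fitted on their counts in edgeR 4.0.16 under R 4.3.3 (TMM, filterByExpr with minimum count 10 and minimum total 15, quasi-likelihood F test, Benjamini-Hochberg adjustment, adjusted p under 0.05), a procedure tested on simulated data. Alternatives used limma 3.58.1 voom, DESeq2 1.42.0, other scalings, filters, halved counts, a replicate block and fits without each library in turn. A log2 fold change is submerged over air with its SE, and CPM was computed here from counts and TMM factors. Nothing beyond the words biological replicates says how replicates were grown, so p-values cover only how these samples differ, which may be technical. Intervals and floors cover counting error only.

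Members and lists were chosen with earlier results of these data known. Full statistics went to textbook members of each complex and to up to 5 called members per direction and organelle with the largest changes. Other members are named within their role, and at most 4 genes per nuclear list. Nuclear matches came from a nucleotide search of TAIR10.1 in place of the planned protein comparison (at least 95% identity). Matching nuclear genes needed 100 bases or more, while the percentages of coding sequence covered also counted shorter stretches. Positions and sequences are not printed, since the mitochondrial record of TAIR10.1 is another than the one in the files.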

Additional observations from a re-analysis of the deposited data

How the results depend on the processing

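Of 479 values of 32 named members under the alternatives, 441 kept their direction and side of the threshold, and psaA, COX1, CCB206 and ATP6-1 did so under every alternative in which they were tested. Upper quartile scaling shifted the median of all genes by -0.12 and left 1 chloroplast gene higher, with a chloroplast median of -0.24. With at least 5 CPM in 3 libraries only 4 chloroplast and 3 mitochondrial genes were tested. This gave 0 chloroplast genes lower, a chloroplast median of 0.078, 3 mitochondrial genes higher and 0 lower. No air library of ATP6-1 or CCB452 reached 5 CPM, so they entered through their submerged libraries and their calls there add no support. psaA was not tested under this filter, so the lack of a lower call there follows from the filter. Without the count filter, with DESeq2 and with the replicate block, 0 mitochondrial genes were lower. Halved counts, which stand for read pairs and met the same minimum count, gave a chloroplast median of -0.17 and 12 mitochondrial genes higher. Leaving out 1 library gave 0 to 2 chloroplast genes higher and 1 to 2 lower with medians of -0.17 to -0.086, and 11 (without Sub 2) to 19 mitochondrial genes higher and 0 to 1 lower with medians of 0.86 to 1.16. Signs turned for matK (-0.027) and ATP9 (-0.10) with upper quartile scaling, for ATP9 with library size alone (-0.014), and for ndhB-1 with copies summed (0.15). Values on both sides of 0 were also seen when 1 library was left out, for ATP9 (-0.35 to 0.36), ndhB-1 (-0.35 to 0.22), ndhB-2 (-0.14 to 0.76), psbA (-0.54 to 0.062), rbcL (-0.40 to 0.11), ycf2-2 (-0.33 to 0.0019) and petB (-0.52 to 0.13). The cause was not tested. Deviations of same-numbered libraries had correlations of -0.07, 0.04 and 0.02, and those of other pairs ran from -0.143 to 0.142. With so few libraries, these values cannot decide whether the replicate numbers pair samples. With the block, 15 mitochondrial genes were higher, COX3 had an adjusted p of 0.0864, ATP1 0.0546 and ORF313 0.0574 by edgeR. The median total count was 106 per chloroplast member and 76.5 per mitochondrial member, which limits the size of change that could be called.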

Other observations

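Organelle rows below 15 counts, which entered no comparison, had 17 chloroplast and 42 mitochondrial rows with at least 1 count. The mitochondrial rows summed to 39, 14 and 22 counts in air and 41, 86 and 44 under water, and 30 of the 42 had a higher summed CPM under water. Per 1e6 library counts these sums were 1.51, 0.681 and 1.08 in air and 1.38, 3.87 and 2.20 under water, so Sub 1 lay within the air range. The chloroplast rows summed to 20, 16 and 23 counts in air and 21, 10 and 8 under water, which per 1e6 library counts were 0.772, 0.778 and 1.13 and then 0.708, 0.450 and 0.399 and did not overlap, and 5 of the 17 had a higher summed CPM under water.

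Within the air group, Air 3 had the largest share of both organelles, at 141 chloroplast and 53.9 mitochondrial counts per 1e6. In 28 of the 36 tested mitochondrial genes and 24 of the 39 tested chloroplast genes Air 3 was above the mean of the other air libraries. The 16 root-preferred genes were lower there, 3 of 16 being above that mean, with a median deviation of -0.78 on the log2 scale. In Air 2, 15 of the 16 root-preferred genes were above the mean of the other air libraries, with a median deviation of 0.67. Without Air 3, 19 mitochondrial genes were called higher by edgeR.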
